A study of Bos taurus with 6 samples.

Results

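The genes described here build the epithelium of the bovine (Bos taurus) blastocyst and the fluid-filled cavity inside it. They were chosen by name as the claudins, the ZO proteins and their partners at tight junctions, the polarity proteins, the E-cadherin complex, the subunits of the sodium pump and the aquaporins. Of the 12826 genes in the count table, 42 carried such a name. The rule used names and not values, but it was set with earlier results of these data known. The 42 genes comprise 10 claudin genes, 4 genes for other tight junction membrane proteins, 5 plaque genes, 10 polarity genes, 7 genes of the adherens junction and EPCAM, 4 sodium pump genes and 2 aquaporin genes. One name of the rule, PALS1, was present under its older symbol MPP5.

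The study compared blastocysts exposed to beta-hydroxybutyrate (BHB), a ketone body, with untreated ones, on day 7 after in vitro production from slaughterhouse material. Each of the 6 RNA-seq libraries held a pool of whole embryos, 3 with BHB and 3 controls. The sources used here do not give the breed, the BHB dose, when exposure began, or how many embryos a pool held. They also do not say whether pools were produced independently, so p-values reflect variation among the 6 libraries, which may be technical.

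A blastocyst forms when the outer cells, the trophectoderm, become a polarised and sealed epithelium. The sodium pump of their basolateral membrane moves sodium towards the interior, water follows partly through aquaporins, and tight junctions keep the fluid in. E-cadherin and the catenins hold the cells together, and the PAR, Crumbs and Scribble complexes mark the apical and basolateral sides of each cell.

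Totals ran from 6440732 to 7348949 counts in BHB libraries and from 7925889 to 8176648 in controls. The 42 genes took 1.06% to 1.25% of the counts with BHB and 1.08% to 1.24% in controls. Levels are in CPM, which scales each library's counts to the same total, here with TMM factors. CPM is not divided by transcript length, so levels are compared between libraries and not between genes. The libraries fell into 3 pairs of 1 BHB and 1 control library, a pairing recovered from the authors' deposited p-values and not stated in the labels.

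No junction, pump or water channel gene passed the test between BHB and control blastocysts. By edgeR's quasi-likelihood test with Benjamini-Hochberg adjustment, 0 of 42 passed an adjusted p of 0.05 (smallest 0.999), against a background of 0% of the 12732 genes tested. At an unadjusted p under 0.05 there were 2 of 42, CLDN10 and MARVELD3, where the background was 2.73%. DESeq2's Wald test called 0 of the 42 (background 0.0468%), limma-voom 0 (background 0%), the edgeR test within pairs 0 (background 0%) and the DESeq2 test within pairs 0 (background 0.339%). The DESeq2 test within pairs gave no adjusted p to CLDN1, CLDN9 and TJAP1, and its background is over 10339 genes. Within pairs, 7 of 42 had an unadjusted p under 0.05 in edgeR (background 8.2%), and the smallest adjusted p was 0.301, that of CLDN10.

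Differences between the groups were small for most of these genes. The median log2 fold change of BHB over control was -0.07 over the 42 genes and -0.005 over all tested genes. It was positive for 18 and negative for 24 of them, where 49.1% of all genes were positive. When libraries were scaled by their totals alone, 22 of 42 were positive, beside 60.7% of all genes. The median size of the log2 fold change, sign ignored, was 0.15 in the 42 genes and 0.16 in all genes. For 33 of the 42 the fold change lay within 1.2-fold in either direction, as it did for 69.1% of all tested genes. The 95% interval of the fold change stayed within 1.5-fold in either direction for 19 genes and within 2-fold for 35, so the data set a bound on any difference there. The interval reached beyond 2-fold for the other 7, which were CLDN1, CLDN7, CLDN8, CLDN9, MARVELD3, SCRIB and TJAP1.

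**Figure D1:**
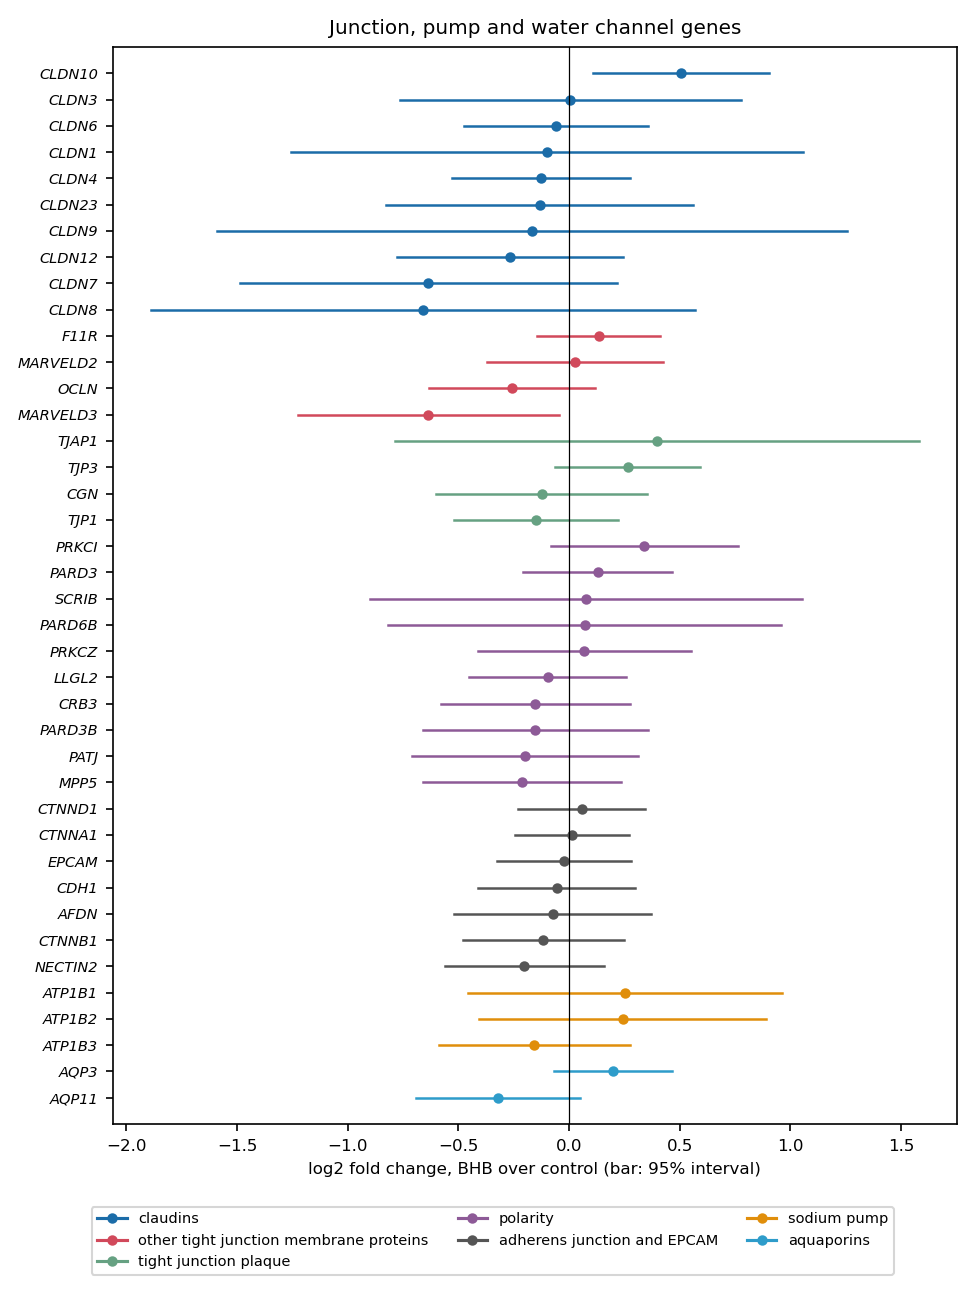
Each dot is the log2 fold change (x axis, BHB over control) of 1 gene in edgeR's test and each bar its 95% interval, with genes grouped by role and coloured. All bars shown except those of CLDN10 and MARVELD3 cross 0, and the bars of CLDN9, CLDN8 and TJAP1 are the widest.

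The groups did not overlap in 5 of the 42 genes, 3 higher and 2 lower with BHB (background 7.84%). CLDN10 and AQP3 were among those on the higher side, and AQP11 and MARVELD3 were the genes on the lower side. The direction was the same in 3 of 3 pairs for 15 of the 42 genes (background 30.3%), positive in 6 (background 14.5%) and negative in 9 (background 15.8%). These shares lay near those of all genes. In pools of whole embryos, fewer cells of a type and less RNA per cell cannot be told apart.

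**Figure D2:**
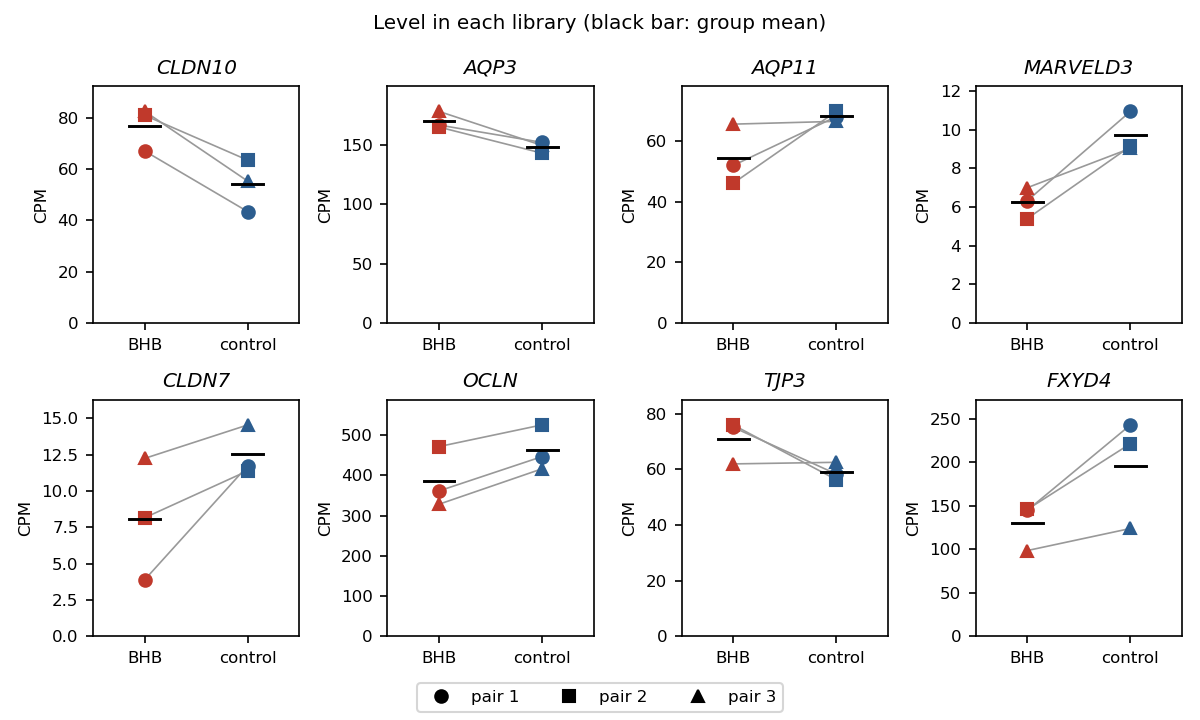
Level (y axis, CPM) in each library, BHB left and control right, with a grey line joining the libraries of a pair and a black bar at each group mean. The groups do not overlap in CLDN10, AQP3, AQP11 and MARVELD3, and overlap in CLDN7, OCLN, TJP3 and FXYD4.

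Claudins are the membrane proteins that form the strands of tight junctions and set which ions pass between cells. CLDN10, which encodes a claudin that forms ion-selective pores, was at 67.1, 81.0 and 82.6 CPM in BHB libraries 1 to 3, against 43.4, 63.5 and 55.3 CPM in control libraries 1 to 3. Every BHB library lay above every control. Its log2 fold change was 0.51 (SE 0.18), with an unadjusted p of 0.018 and an adjusted p of 0.999 in edgeR. The within-pair differences were 0.62, 0.35 and 0.58 on the log2 scale.

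Of the 10 claudins, 8 had a negative log2 fold change, none of them past the test, and the group's median was -0.13. CLDN7, a claudin of many epithelia, was at 3.91, 8.17 and 12.3 CPM with BHB and at 11.8, 11.4 and 14.6 CPM in controls. BHB library 1 was far below the rest, and BHB library 3 lay above 2 of the 3 controls. Its log2 fold change was -0.64 (SE 0.38), and it ranged from -1.06 to -0.30 when single libraries were left out. The counts behind it were 29 to 124 per library.

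CLDN8, a claudin known from kidney epithelium, was at 19.1, 4.71 and 7.59 CPM with BHB and at 28.6, 10.5 and 10.8 CPM in controls. It was lower with BHB in 3 of 3 pairs, but the spread between pairs was wider than the difference, so the groups overlapped. The log2 fold change was -0.66 (SE 0.55), and it ranged from -1.43 without BHB library 1 to -0.02 without control library 1.

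CLDN6, known as a claudin of embryonic and early epithelial cells, held 8034 to 12937 counts per library. It was at 1579, 1472 and 1172 CPM in BHB libraries and at 1728, 1546 and 1127 CPM in controls. The values within a pair were nearly equal, and the log2 fold change was -0.06 (SE 0.18, 95% interval -0.48 to 0.36). That direction turned to 0.01 under scaling by library totals alone. CLDN4, a barrier-forming claudin, averaged 101 ± 12.6 CPM with BHB and 110.4 ± 23.9 CPM in controls (SD, n = 3 each), and CLDN23 averaged 36.9 ± 15.7 and 40.6 ± 8.25 CPM in the same groups.

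The other claudins were CLDN1, CLDN3, CLDN9 and CLDN12. CLDN3 averaged 7.61 ± 2.91 CPM with BHB and 7.58 ± 1.33 CPM in controls, and CLDN12 15.7 ± 2.62 and 18.9 ± 3.39 CPM in those groups (SD, n = 3 each). CLDN1 rested on 12 to 53 counts per library and CLDN9 on 3 to 12, and their intervals reached beyond 2-fold. The sources used here do not say how reads matching several genes were counted, so levels of claudins that resemble each other in sequence are uncertain.

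The 3 MARVEL proteins at tight junctions are occludin, tricellulin and MARVELD3. MARVELD3 was at 6.33, 5.40 and 7.00 CPM in BHB libraries, against 10.95, 9.15 and 9.04 CPM in control libraries. The groups did not overlap, on 39 to 82 counts per library. Its log2 fold change was -0.64 (SE 0.26, edgeR unadjusted p = 0.037, adjusted p = 0.999), and it lay between -0.73 and -0.54 without any single library.

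OCLN, which encodes occludin, was at 361, 471 and 328 CPM with BHB and at 446, 525 and 416 CPM in controls. BHB was lower in 3 of 3 pairs, by -0.31, -0.16 and -0.34 on the log2 scale, while BHB library 2 lay above 2 of the 3 controls. The log2 fold change was -0.26 (SE 0.17, adjusted p = 0.999 in edgeR, 0.534 within pairs). MARVELD2, which encodes tricellulin of the corners where 3 cells meet, averaged 54.6 ± 8.06 CPM with BHB and 53.6 ± 8.63 CPM in controls (SD, n = 3 each), with a log2 fold change of 0.03. F11R, which encodes the adhesion protein JAM-A, was at 470.02, 530 and 549 CPM with BHB and at 444, 478 and 489 CPM in controls. It was higher with BHB in 3 of 3 pairs, with overlapping groups and a log2 fold change of 0.13 (SE 0.12). All 4 genes of this group thus kept 1 direction over the pairs (background 30.3%), 2 up and 2 down, and none passed the test. Those of MARVELD2 were nearly level, with pair differences of 0.02, 0.01 and 0.06 on the log2 scale.

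Plaque proteins tie the junction membrane proteins to actin. TJP3, which encodes ZO-3, was at 75.2, 76.0 and 62.0 CPM with BHB and at 58.4, 56.3 and 62.6 CPM in controls. BHB libraries 1 and 2 were above all controls and BHB library 3 was not. The log2 fold change of TJP3 was 0.27 (SE 0.15). TJP1, which encodes ZO-1, was at 132, 109 and 110.0 CPM with BHB and at 108, 154 and 128 CPM in controls, with overlapping groups and a log2 fold change of -0.15 (SE 0.16). CGN, the gene of cingulin, averaged 99.1 ± 23.1 CPM with BHB and 108 ± 21.3 CPM in controls (SD, n = 3 each). TJAP1, which encodes a tight junction-associated protein, had 7 to 19 counts per library.

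Of the 10 polarity genes, 5 had a positive and 5 a negative log2 fold change. PRKCI encodes the atypical protein kinase C of the PAR complex. It was at 327, 302 and 363 CPM in BHB libraries and at 230, 213 and 341 CPM in control libraries. Control library 3 lay among the BHB values and the other controls below them. The log2 fold change was 0.34 (SE 0.19, adjusted p = 0.999 in edgeR, 0.457 within pairs), with differences of 0.51, 0.51 and 0.09 in the pairs. Its relative PRKCZ and the scaffold PARD3 had overlapping groups, PRKCZ at 46.9 to 72.9 CPM with BHB and 44.0 to 62.6 CPM in controls, and PARD3 at 73.8 to 93.2 and 69.5 to 83.4 CPM.

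PATJ and MPP5 encode scaffold proteins that bind each other in the Crumbs complex. PATJ was at 329, 209 and 179.7 CPM with BHB and at 317, 279 and 228 CPM in controls. MPP5 was at 338, 244 and 198 CPM with BHB and at 328, 318 and 258 CPM in controls. Both genes placed the 6 libraries in the same order, with BHB library 1 highest and BHB library 3 lowest. The ratio of PATJ to MPP5 counts stayed between 0.858 and 0.974 in BHB libraries and between 0.876 and 0.968 in controls. In both, pairs 2 and 3 were lower with BHB and pair 1 was not. The log2 fold changes were -0.20 (SE 0.23) for PATJ and -0.21 (SE 0.20) for MPP5, which ranged from -0.45 without BHB library 1 to -0.05 without BHB library 3. CRB3, the gene of the membrane anchor of that complex, had another order, with control library 2 highest, and averaged 48.5 ± 8.92 CPM with BHB and 53.9 ± 8.41 CPM in controls (SD, n = 3 each).

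Among the basolateral genes, LLGL2 averaged 57.7 ± 9.29 CPM with BHB and 61.7 ± 2.17 CPM in controls, and SCRIB averaged 4.62 ± 1.51 and 4.39 ± 2.21 CPM in those groups (SD, n = 3 each). PARD3B and PARD6B had log2 fold changes of -0.15 and 0.07. PARD6B and SCRIB rested on 24 to 48 and 24 to 52 counts per library.

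The genes of the adherens junction and EPCAM lay close to 0, with all 7 log2 fold changes between -0.20 and 0.06. CTNNB1, which encodes beta-catenin, was at 822, 763 and 673 CPM with BHB and at 938, 859.9 and 649 CPM in controls. The groups overlapped, pair 3 was low in both, and the log2 fold change was -0.12 (SE 0.16). CDH1, the E-cadherin gene, averaged 719 ± 92.7 CPM with BHB and 748 ± 113 CPM in controls, with a log2 fold change of -0.06 and a 95% interval of -0.41 to 0.30. CTNNA1, the gene of alpha-catenin, had the narrowest interval, -0.24 to 0.27, at 629 ± 17.6 and 623 ± 24.8 CPM in BHB and control libraries (SD, n = 3 each).

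NECTIN2, a nectin that starts cell contacts, was at 109, 115 and 93.4 CPM with BHB and at 143, 119.7 and 103 CPM in controls. It was lower with BHB in 3 of 3 pairs, and the groups overlapped (log2 fold change -0.20, SE 0.16). EPCAM, an epithelial adhesion protein, averaged 663 ± 7.46 CPM with BHB and 673 ± 91.9 CPM in controls. AFDN, which links nectins to actin, and CTNND1, the gene of p120-catenin, had log2 fold changes of -0.07 and 0.06.

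The sodium pump is made of a catalytic alpha and a glycosylated beta subunit. ATP1B3, a beta subunit gene, was at 4138, 3133 and 2896 CPM with BHB and at 4689, 3317 and 3326 CPM in controls. It was lower with BHB in 3 of 3 pairs, by -0.18, -0.08 and -0.20 on the log2 scale. Across pairs the groups overlapped, and the log2 fold change was -0.16 (SE 0.19). Without control library 1 it turned to 0.03.

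ATP1B3 supplied 28.7% to 33.4% of all counts of the 42 genes in BHB libraries and 29.0% to 35.7% in controls. The other beta subunit genes, ATP1B1 and ATP1B2, averaged 10.8 ± 3.72 and 11.2 ± 2.01 CPM with BHB and 9.11 ± 1.30 and 9.46 ± 2.79 CPM in controls (SD, n = 3 each). In both, pairs 1 and 2 were higher with BHB and pair 3 was lower. ATP1B2 was at 11.6, 13.0 and 9.05 CPM with BHB and at 8.01, 7.69 and 12.7 CPM in controls. Its groups overlapped, and the log2 fold change was 0.24 (SE 0.29).

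A list of pump and ion transport partners was set beside these subunits, and 13 of its 27 names were in the table. None passed the unpaired test. FXYD4 belongs to the FXYD family of small membrane proteins that bind the pump and adjust its transport. It was at 145, 146 and 98.6 CPM in BHB libraries, against 243, 221 and 124 CPM in control libraries. BHB libraries 1 and 2 lay above control library 3, so the groups overlapped, but BHB was lower in 3 of 3 pairs, by -0.75, -0.60 and -0.33 on the log2 scale. DESeq2's Wald test within pairs called it as lower with BHB (log2 fold change -0.57, SE 0.14, adjusted p = 0.0278, background 0.339%). It passed neither edgeR's test within pairs (adjusted p = 0.221) nor the test without pairing (adjusted p = 0.999). Without pair 1, 2 or 3 the DESeq2 adjusted p was 0.881, 0.999 or 0.094. The log2 fold change in those fits, which hold fewer libraries, was -0.47, -0.54 or -0.68. Between pairs FXYD4 was also called by edgeR (adjusted p = 0.0287).

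Trophectoderm markers are given beside FXYD4 because the keratins among them shared its direction. KRT8 was at 9804, 8217 and 5706 CPM with BHB and at 12283, 11329 and 7369 CPM in controls, lower in 3 of 3 pairs. KRT18 and KRT19 were also lower in 3 of 3 pairs, KRT18 at 2732 ± 574 CPM with BHB and 3574 ± 857 CPM in controls and KRT19 at 195 ± 59.5 and 345 ± 198 CPM (SD, n = 3 each). For KRT19 the differences in pairs 1 to 3 were -0.04, -1.11 and -0.98 on the log2 scale, so pair 1 was almost level. The log2 fold changes were -0.38 for KRT8, -0.39 for KRT18 and -0.82 for KRT19, with overlapping groups in each. The summed level of the 11 trophectoderm markers in the table (of 12 listed) was 10110 to 17064 CPM in BHB libraries and 13053 to 19864 CPM in controls. KRT8 and KRT18 held most of this sum in every library, so it mainly repeats their values. Of these 11, 4 had a positive and 7 a negative log2 fold change, and none passed edgeR's or DESeq2's test of treatment, with or without pairing. In 3 of 3 pairs, 4 of the 11 were lower with BHB (background 15.8%) and 3 were higher (background 14.5%). The higher ones were CDX2, TFAP2C and TEAD4, with log2 fold changes of 0.32, 0.37 and 0.22. Between pairs edgeR called 4 of the 11, KRT8, KRT18, KRT19 and DAB2 (adjusted p = 0.00706, 0.0169, 0.0340 and 0.0402). Their part in the values of FXYD4 and of the claudins was not tested. The trophectoderm factor CDX2 averaged 6.80 ± 2.81 CPM with BHB and 5.47 ± 1.59 CPM in controls. GATA3 averaged 136 ± 8.86 and 138 ± 26.6 CPM in those groups (SD, n = 3 each). Both genes were thus detected in every library, CDX2 on 28 to 73 counts per library.

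Both aquaporin genes in the table had groups that did not overlap (background 7.84%), in opposite directions, and neither passed a test of treatment. AQP3, a channel for water and glycerol, was at 167, 165 and 178 CPM in BHB libraries, against 152, 143 and 149.7 CPM in control libraries. Every pair was higher with BHB, by 0.13, 0.21 and 0.25 on the log2 scale. The log2 fold change was 0.20 (SE 0.12, 95% interval -0.07 to 0.46), and leaving out single libraries kept it between 0.16 and 0.22.

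AQP11, an aquaporin of intracellular membranes, was at 52.0, 46.1 and 65.7 CPM in BHB libraries, against 68.1, 69.9 and 66.6 CPM in control libraries. The 3 controls lay close together, BHB libraries 1 and 2 were below them, and BHB library 3 was almost level with them. The log2 fold change was -0.32 (SE 0.16, 95% interval -0.69 to 0.05, edgeR adjusted p = 0.999). Neither aquaporin passed within pairs in edgeR (adjusted p = 0.676 for AQP3 and 0.590 for AQP11).

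Several of these genes differed more between pairs than between treatments, as genes of the whole table also did. The median share of variance in log2 CPM was 57.6% for pair and 11.7% for treatment in the 42 genes. Over all tested genes it was 53.5% and 10.8%. Pair has 2 degrees of freedom, more than treatment has. In a model with treatment, edgeR's quasi-likelihood test of the pair terms called 3 of the 42 genes, CLDN8, ATP1B3 and CLDN6 (background 4.12%). CLDN8 averaged 23.9, 7.59 and 9.19 CPM in pairs 1 to 3 (adjusted p = 0.012). ATP1B3 averaged 4413, 3225 and 3111 CPM in pairs 1 to 3 (adjusted p = 0.0309). Both were high in pair 1, in the BHB and the control library alike.

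CLDN6 averaged 1654, 1509 and 1149.6 CPM in those pairs, lowest in pair 3 (adjusted p = 0.0498). With DESeq2's size factors its adjusted p was 0.051 and PATJ was called in its place, and DESeq2's likelihood ratio test called all of these, 4 of 42 (background 5.48%). Leaving out 1 library at a time left 2 to 4 genes called. CLDN8 lost its call without BHB library 1 or control library 1, and ATP1B3 and CLDN6 each lost theirs without BHB library 2, BHB library 3, control library 2 or control library 3. Both libraries of pair 1 lay outside the range of the other 4 in 12 of the 42 genes, 8 above and 4 below, where the background was 25.5%.

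**Figure D3:**
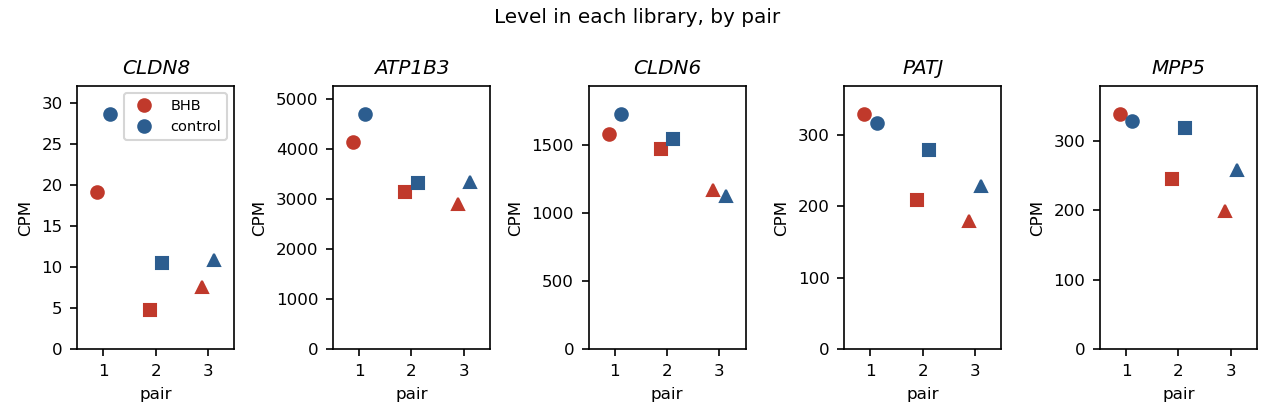
Level (y axis, CPM) of 5 genes in the BHB and control library of each pair (x axis). CLDN8 and ATP1B3 are highest in both libraries of pair 1, CLDN6 is lowest in both libraries of pair 3, and PATJ and MPP5 place the libraries in the same order.

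The authors' deposited table gives 7 of the 42 genes an adjusted p under 0.05, or 16.7%, where the background was 5.04%. They are CLDN8, PRKCI, ATP1B3, PATJ, MPP5, OCLN and CLDN6. The p-values of the authors' deposited table were recovered by a likelihood ratio test of pair and treatment together against neither. A small value can thus come from pairs, from treatment or from both. Of the 7, PRKCI, OCLN, MPP5 and PATJ were not called between pairs by edgeR (adjusted p = 0.137, 0.121, 0.106 and 0.0538). DESeq2's likelihood ratio test of pair did not call PRKCI, OCLN and MPP5 either (adjusted p = 0.121, 0.117 and 0.065), but it called PATJ (adjusted p = 0.00915). With treatment tested by itself within pairs, as above, 0 of the 42 passed.

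**Figure D4:**
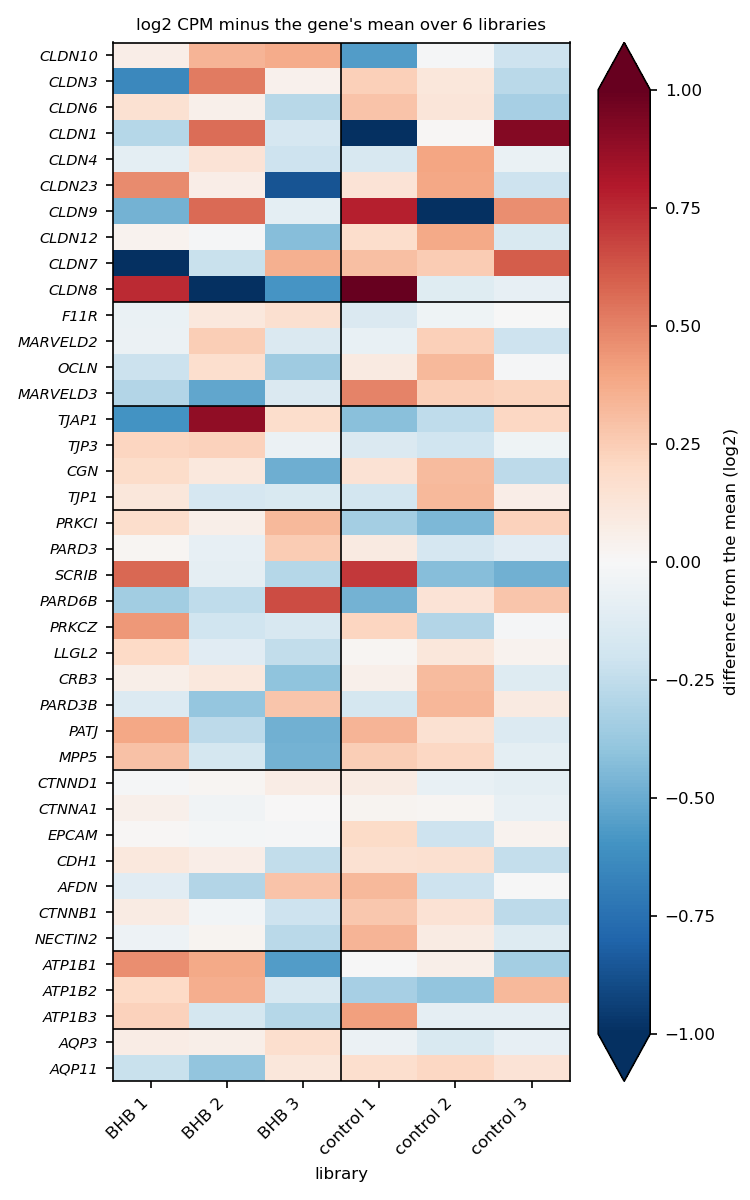
Each cell is the log2 CPM of a gene (rows, by role) in a library (columns, BHB left and control right) minus the gene's mean over the 6 libraries, with the colour scale ending at 1 log2 unit in either direction. Among the strongest colours are those of claudins with few counts and of CLDN8, high in pair 1 and low in BHB library 2. The rows of the adherens junction are pale.

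Related genes outside the 42 were read from lists. Of 33 other junction and polarity genes, all in the table, 32 were tested and 0 passed between treatments in edgeR or in DESeq2, each with and without pairing. DESeq2 within pairs gave no adjusted p to some of those with few counts. They had 17 positive and 15 negative log2 fold changes and a median of 0.04. Those with the smallest p were MPDZ, a multi-PDZ scaffold related to PATJ, at 10.6 ± 3.73 CPM with BHB and 6.28 ± 2.04 CPM in controls, and DLG1, a basolateral scaffold, at 188 ± 16.1 and 225 ± 43.8 CPM (SD, n = 3 each).

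Of 13 epithelial transcription factors listed, 9 were in the table and 0 passed between treatments, though DESeq2 within pairs gave ZEB2 no adjusted p. ZEB2, a repressor of CDH1 in other cells, averaged 0.70 ± 0.97 CPM with BHB and 2.89 ± 1.84 CPM in controls, and TFAP2C, a trophectoderm factor, 278 ± 16.6 and 215 ± 55.0 CPM (SD, n = 3 each). The values of ZEB2 rest on 0 to 32 counts per library, and its groups overlapped. GRHL1, of a family of epithelial activators, was called between pairs (adjusted p = 0.0192). In both groups its CPM was highest in pair 1, at 262 with BHB and 287 in the control.

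Other cells of the embryo were followed by their marker lists. The summed level of 6 inner cell mass and epiblast markers (of 8 listed) was 427 to 508 CPM with BHB and 453 to 494 CPM in controls, and that of 6 primitive endoderm markers (of 8 listed) was 383 to 424 and 310.3 to 434 CPM. POU5F1 held most of the first sum, at 290.2 ± 29.2 CPM with BHB and 292 ± 15.6 CPM in controls (SD, n = 3 each), while NANOG and KLF17 differed in opposite directions.

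NANOG, a pluripotency factor, was at 30.7, 33.4 and 51.2 CPM with BHB, against 72.4, 60.7 and 73.4 CPM in controls. The groups did not overlap, and DESeq2's test within pairs called it as lower with BHB (log2 fold change -0.87, SE 0.20, adjusted p = 0.00887, background 0.339%). It did not pass edgeR's test within pairs (adjusted p = 0.183) or without pairing (adjusted p = 0.999), nor DESeq2's without pairing (adjusted p = 0.368). Without pair 1, 2 or 3 the DESeq2 adjusted p within pairs was 0.622, 0.682 or 0.046, at log2 fold changes of -0.69, -0.88 or -1.05. KLF17 was at 34.2, 24.2 and 33.0 CPM with BHB and at 15.4, 17.9 and 22.3 CPM in controls, without overlap and with a log2 fold change of 0.72 (SE 0.22, edgeR adjusted p = 0.999). GATA4, a primitive endoderm factor, also had groups without overlap. Its level was 1.08, 1.80 and 0.875 CPM with BHB and 2.40, 1.99 and 3.17 CPM in controls. These values rest on 6 to 27 counts per library, and GATA4 did not pass edgeR's test (adjusted p = 0.999). Of the 6 primitive endoderm markers, 4 had a positive and 2 a negative log2 fold change. Only GATA4 among them had groups without overlap. Between pairs edgeR called KLF4, PDGFRA and HNF4A (adjusted p = 0.0354, 0.0225 and 0.0332).

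Cumulus and granulosa markers, of which 3 of 10 were in the table, summed to 22.2 to 27.0 CPM with BHB and 21.6 to 30.2 CPM in controls. Of 6 leukocyte and blood markers the table held CD68, at 2.42 to 2.77 CPM with BHB and 1.33 to 2.27 CPM in controls. The markers not in the table are not analysed here. The part of these cells in the levels of the 42 genes was not tested.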

How the data were processed

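The authors deposited whole-number counts per gene for 6 libraries, with columns matched to samples by title and description. Per the labels' protocols, a stranded mRNA kit was used on DNase-treated RNA. The submitters' processing notes name STAR, featureCounts and DESeq2, without versions. The sources used here give no genome build, strand setting or filter. The authors' deposited table of their comparison holds a mean normalized count (a linear signal), the log2 fold change of control over BHB and its error, a statistic (a score) and p-values.

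Of the 42 names, 41 were symbols of the RefSeq table of ARS-UCD2.0 and 1 was an older symbol. The members and lists were chosen with earlier results of these data known. The smallest total of a gene was 38 counts.

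Counts were normalized with TMM, and edgeR's filterByExpr removed 94 genes but none of the 42. The main test was the quasi-likelihood F test of edgeR 4.0.16 (R 4.3.3), adjusted by Benjamini-Hochberg over all tested genes, at 0.05. Standard errors and 95% intervals were derived from its F statistic. DESeq2 1.42.0, limma 3.58.1 (voom), other scalings and filters, and fits without each library or pair were alternatives. The fits were tested on simulated counts.

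A DESeq2 likelihood ratio test with BHB 1, 2 and 3 paired with control 1, 2 and 3 matched 99.98% of the deposited p-values within 1e-06. The other 5 pairings did so in at most 0.398%. Deviations from the group means correlated at 0.32 to 0.47 over genes within pairs and at -0.30 to -0.003 between pairs. Libraries carry numbers in order of deposit.

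Among members reported by name, library values and fold changes are given for the highest level and the 2 smallest p of each role. They are also given for members with groups that do not overlap and for those called in a test. Values of the others, and the choice of PATJ and other members described in detail, followed after values were seen. Some members are counted but not reported here by name. From the related lists, genes past a threshold were named, or the 2 with the smallest p. KLF17, GATA4, POU5F1, CDX2, GATA3 and TEAD4 were named after values were seen.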

Additional observations from a re-analysis of the deposited data

How the results depend on the processing

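The count of 0 of the 42 genes called between BHB and control held under all 18 alternatives run. Over all genes the count was 0 in the reported test, 6 in DESeq2's Wald test, 35 in the DESeq2 test with the replicate block, 0 in edgeR with the replicate block, and 4, 16 and 4 in that test without pair 1, 2 and 3. Without single libraries it was 0 to 1. The replicate block changed no call of the 42 genes. Their median log2 fold change was 0.0076 under scaling by library totals alone and ran from -0.12 to 0.010 without single libraries, so its sign changed with the setting. That of CLDN6 turned to 0.014 under scaling by totals. Without single libraries it ran from -0.22 to 0.078 for CLDN6, from -0.33 to 0.031 for ATP1B3 and from -0.26 to 1.8e-05 for CTNNB1. All 3 turned without control library 1, and CLDN6 also without BHB library 3. The cause was not tested. No other direction turned among the 17 genes taken by the naming rule. Genes called between pairs numbered 300 without control library 1 and 1076 without BHB library 3, the lowest and highest of these fits. A filter of at least 1 CPM in 3 libraries removed no gene. One of at least 5 CPM, chosen after seeing the data, left 37 of the 42, with 0 called between treatments and 2 between pairs. Counts of 3 to 19 per library limit CLDN9 and TJAP1.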
